A study of Mus musculus with 6 samples.

Results

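The genes described here are 10 assembly factors of respiratory complexes III and IV (*Uqcc1*, *Uqcc2*, *Uqcc3*, *Bcs1l*, *Lyrm7*, *Ttc19*, *Coa3*, *Sco1*, *Sco2*, and *Surf1*), taken by symbol from the 32285 genes of the count tables, where all 10 were found. Their transcripts were followed in pancreatic islet cells of WT mice and of β14-3-3ζ–KO mice, in which exon 4 of *Ywhaz*, the gene of the scaffold protein 14-3-3ζ, is deleted in β cells by Cre expressed from the *Ins1* locus (*Ins1*CreThor). WT mice were littermates that carried Cre and no floxed allele, so Cre was present in both genotypes. Mice were of the strain labelled C57/BL6, which the study's methods give as C57BL/6J, and 12 to 14 weeks old. Islets of 3 WT and 3 KO mice recovered overnight, were dispersed with trypsin, were depleted of dead cells, and gave 1 Chromium 3′ single-cell library per mouse, 6 in all. Captured mRNAs are read near the 3′ end and tagged with unique molecular identifiers (UMIs), and a value is the number of distinct tags. Cells of 1 mouse are not independent replicates, and UMIs were therefore summed per library and cell type before any test.

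Complex III takes electrons from coenzyme Q to cytochrome c, and complex IV takes them from cytochrome c to oxygen. Both are built in the inner mitochondrial membrane around core subunits encoded by mitochondrial DNA, and assembly factors are proteins that help to build an enzyme without staying in it. In complex III, the proteins of *Uqcc1* and *Uqcc2* bind newly made cytochrome b, that of *Uqcc3* acts at a later step of the same module, those of *Lyrm7* and *Bcs1l* hold and insert the Rieske iron-sulfur protein, and that of *Ttc19* acts after the insertion. In complex IV, the protein of *Coa3* acts on newly made COX1, that of *Surf1* in the step at which COX1 receives heme, and those of *Sco1* and *Sco2* in the delivery of copper to COX2. In β cells, respiration is known to link glucose to ATP and to insulin secretion.

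The 6 libraries held 4400 to 10722 barcodes and 74083947 to 98294915 UMIs each. Barcodes with fewer than 500 detected genes or a share above 10% of mitochondrially encoded transcripts were left out, which kept 27004 of 43445. A kept barcode was classed by its dominant hormone (insulin for β, *Gcg* for α, *Sst* for δ, and *Ppy* for a class called *Ppy*-dominant) or by canonical markers of endothelial cells, macrophages, and B cells, and 7040 barcodes were β cells (889 to 1482 per library). Summed endothelial markers were at 11390 to 14996 CPM (counts scaled to the same total per library) in endothelial cells. In β cells they were at 9.29 to 15.3 CPM. The classing rule used this list, so that contrast was set in advance. Summed β cell markers, which the rule did not use, were at 35731 to 38514 CPM in β cells and 2331 to 5243 CPM in α cells. The β list did not mark β cells alone, since it reached 25638 to 32377 CPM in δ cells. *Ywhaz* was at 143 to 163 CPM in WT and 20.5 to 28.2 CPM in KO β cells (log2 fold change −2.73, SE 0.138, edgeR quasi-likelihood FDR = 4.82e-04). Following the study, comparisons of genotypes in β cells used no KO β cell in which *Ywhaz* had a UMI, which left 2973 WT and 2326 KO β cells. The KO cells that stayed were shallower, with median UMIs of 19998 to 28988.5 per library against 28006 to 42603 in WT. A 3′ UMI does not show exon 4, so this selection rests on the level of the transcript and not on the deleted sequence. B cells numbered 12 in KO library 1, the fewest of any class compared. Any pair of libraries shared 1 to 15 barcodes, at most 0.352% of the smaller library.

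The promoters of 3 members are shown because the results below turn on these genes: *Uqcc2* and *Coa3*, which had the largest KO-WT differences in β cells, and *Sco2*, which had the largest difference between β cells and another class among the members tested. Each runs from 250 bases before to 30 bases after the RefSeq transcription start, 5′ to 3′ on the gene's strand (GRCm38.p6). Capitals mark matches, on either strand, to any of 4 motifs searched: CCGGAAG (ETS family), GCGCANGCG (NRF1), AANATGGC (YY1), and CACGTG (E-box).
Uqcc2 (chr17:27133862-27134141, minus strand): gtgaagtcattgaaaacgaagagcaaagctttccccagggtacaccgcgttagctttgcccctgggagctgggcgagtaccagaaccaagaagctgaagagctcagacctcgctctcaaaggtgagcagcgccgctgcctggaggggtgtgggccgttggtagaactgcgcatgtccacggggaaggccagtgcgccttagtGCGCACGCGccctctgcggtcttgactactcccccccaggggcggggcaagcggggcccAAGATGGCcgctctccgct
Coa3 (chr11:101278919-101279198, minus strand): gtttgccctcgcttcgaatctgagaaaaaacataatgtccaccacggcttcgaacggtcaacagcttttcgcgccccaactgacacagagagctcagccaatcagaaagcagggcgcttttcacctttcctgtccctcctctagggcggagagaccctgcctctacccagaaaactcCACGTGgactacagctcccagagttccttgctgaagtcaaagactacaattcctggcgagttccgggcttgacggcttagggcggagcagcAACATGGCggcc
Sco2 (chr15:89373862-89374141, minus strand): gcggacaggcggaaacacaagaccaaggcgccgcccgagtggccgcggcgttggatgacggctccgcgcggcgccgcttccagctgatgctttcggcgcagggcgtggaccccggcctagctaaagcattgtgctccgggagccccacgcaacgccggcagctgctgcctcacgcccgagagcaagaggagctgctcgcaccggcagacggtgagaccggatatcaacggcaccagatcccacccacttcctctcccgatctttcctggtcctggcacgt

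The *Uqcc2* window held the NRF1 letters from base −48 and the YY1 letters from base 11, counted from the start. The *Coa3* window held CACGTG from base −73 and the YY1 letters from base 18. None of the 4 motifs was found in these 280 bases of *Sco2*. Over the 10 members, the ETS letters were in 3 windows (*Bcs1l*, *Sco1*, and *Surf1*), the NRF1 letters in 2 (*Uqcc2* and *Ttc19*), the YY1 letters in 3 (*Uqcc2*, *Lyrm7*, and *Coa3*), and the E-box in 2 (*Uqcc3* and *Coa3*). Among all 32851 promoter windows of the same length, the ETS letters were in 8.45%, the NRF1 letters in 6.0%, the YY1 letters in 5.22%, and the E-box in 6.79%. A match is a description of the letters and not of a bound factor.

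In the GENCODE vM21 annotation (GRCm38), *Uqcc2* (ENSMUSG00000024208) lies on chromosome 17 from 27122663 to 27133916 and *Coa3* (ENSMUSG00000017188) on chromosome 11 from 101277968 to 101279114, both on the minus strand. *Lyrm7*, *Ttc19*, *Coa3*, and *Sco1* are all on chromosome 11, and the other 6 members lie on chromosomes 1, 2, 15, 17, and 19. *Sco2* (ENSMUSG00000091780, chromosome 15 from 89371637 to 89373846, minus strand) shares 856 of its 1253 exonic bases with *Tymp* on the same strand and 829 with *Ncaph2* on the opposite strand. The 3′ kit keeps the strand, but a read in the bases shared with *Tymp* cannot be told apart from one of *Sco2*. *Tymp* is not among the genes of the count tables, so its own level could not be set beside that of *Sco2*. The count of *Sco2* is therefore uncertain. The other exonic overlaps are with genes on the opposite strand, 137 bases of *Surf1* with *Surf2*, 82 bases of *Coa3* with *Cntd1*, and 1 base of *Ttc19* with *Ncor1*.

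The first comparison asked whether loss of 14-3-3ζ in β cells goes with other transcript levels of these assembly factors. No member passed the test. The largest log2 fold changes were 0.35 for *Uqcc2* and 0.24 for *Coa3*. The other 7 tested members had log2 fold changes between −0.14 and 0.10. A gene was tested where more than 15% of the β cells of either genotype had a UMI, and called at an FDR under 0.05 with an absolute log2 fold change above 0.1 (edgeR quasi-likelihood test with TMM scaling and Benjamini-Hochberg adjustment over 9465 genes). *Lyrm7* did not pass this filter. Of the 9 members tested, 0 were called, against 1 of 9465 genes (0.0106%), which was *Ywhaz* itself, the gene whose UMIs chose the KO cells. At an unadjusted p under 0.05 the counts were 0 of 9 members and 399 of all genes (4.22%), and DESeq2 called 7 of all genes and 0 members. The library number served as a replicate block in a further fit, a pairing inferred from these same data and not given by the sample titles. There 18 of 9465 genes were called (0.19%), again 0 of them members. In that fit 2 of 9 members and 11.5% of all genes had an unadjusted p under 0.05.

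Among the factors of cytochrome b, *Uqcc2* was at 272, 378, and 358 CPM in WT libraries 1 to 3 and at 360, 520, and 409 CPM in KO libraries 1 to 3 (TMM-scaled CPM, here and in the next paragraphs on genotype). The groups overlapped, since KO library 1 was below WT library 2. The means were 336 ± 56.1 CPM in WT and 430 ± 81.9 CPM in KO (SD, n = 3 each), a log2 fold change of 0.35 (SE 0.163). On the linear scale that is 1.28-fold, with a 95% interval from 0.988 to 1.65, so the data allow both no difference and a rise of about that upper bound. The edgeR FDR was 0.914, and 0.169 with the replicate block (log2 fold change 0.35, SE 0.0847, unadjusted p = 0.00163). The study, with a test over cells, listed *Uqcc2* among the top upregulated genes of KO β cells on these same libraries. The direction of *Uqcc2* here is therefore not independent of that choice. *Uqcc1*, whose protein binds that of *Uqcc2*, was at 14.5, 16.4, and 15.2 CPM in WT and 13.8, 14.3, and 16.1 CPM in KO (log2 fold change −0.058, SE 0.0907). *Uqcc3* was at 32.0, 32.8, and 34.5 CPM in WT and 31.4, 39.6, and 35.2 CPM in KO (0.095, SE 0.0908). For both, the genotypes overlapped and the difference was about the size of its SE or less, with FDRs of 0.944 and 0.919.

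**Figure D1:**
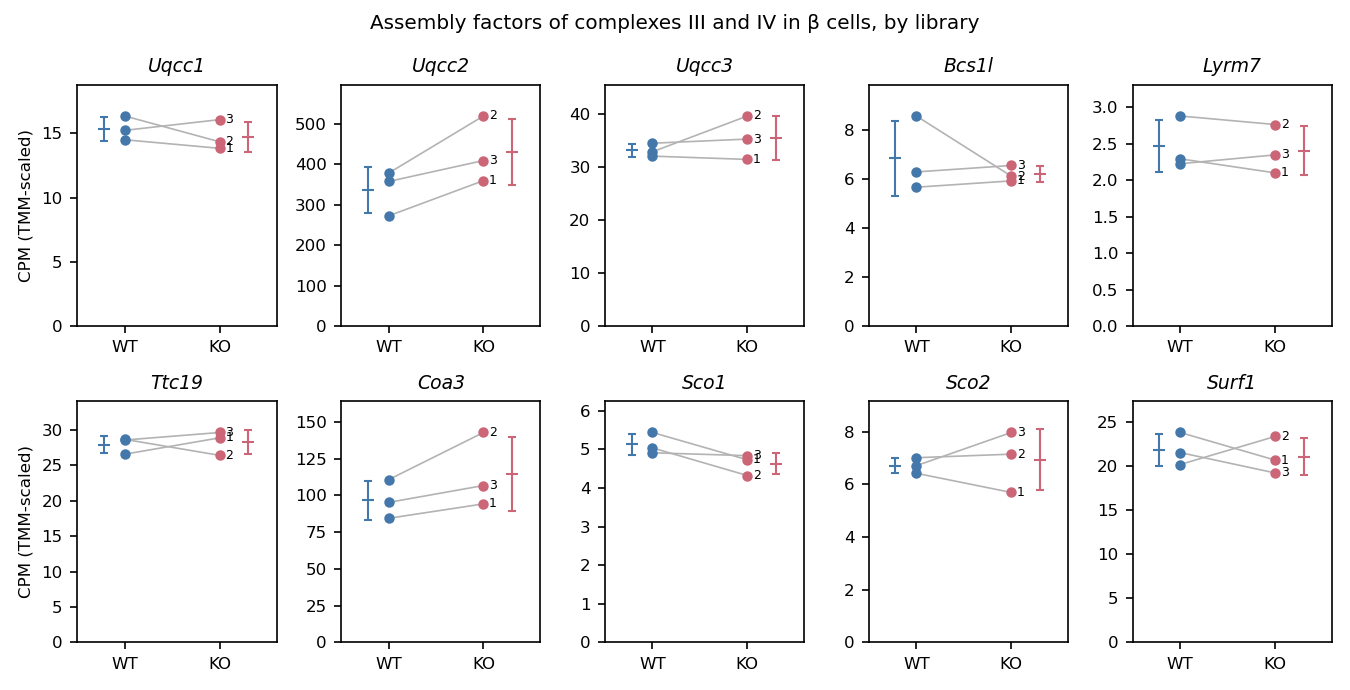
TMM-scaled CPM of each member in β cells of the 6 libraries (y axes start at 0 and differ by gene). Points are libraries, grey lines join libraries of the same number, which stands beside the KO point, and bars are mean ± SD (n = 3). *Uqcc2* and *Coa3* rise along all 3 lines while their WT and KO ranges overlap, and *Sco1* falls along all 3.

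Of the members that act on the Rieske protein, *Bcs1l*, which encodes an AAA ATPase of the inner membrane, was at 5.65, 8.56, and 6.28 CPM in WT and 5.91, 6.11, and 6.54 CPM in KO (log2 fold change −0.14, SE 0.163). The WT mean rested on library 2, and without it the log2 fold change was 0.052. *Ttc19* was at 26.6, 28.6, and 28.6 CPM in WT and 28.9, 26.4, and 29.6 CPM in KO (0.020, SE 0.0744), and its sign was negative in 4 of 16 alternatives. *Lyrm7*, whose protein is the chaperone of the Rieske protein, was at 2.29, 2.88, and 2.23 CPM in WT and 2.10, 2.77, and 2.35 CPM in KO, with groups that overlapped. *Bcs1l* and *Ttc19* had FDRs of 0.930 and 0.976 (edgeR), and *Lyrm7* was not tested.

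In the complex IV group, *Coa3* was at 84.4, 111, and 95.2 CPM in WT and 94.2, 143, and 107 CPM in KO. KO was higher in each same-numbered pair, while KO libraries 1 and 3 were below WT library 2. Other genes of both complexes, *Uqcrb* and *Cox8a* among them, were also higher in KO in each such pair. The share of all genes with that pattern was not set beside it. The means were 96.7 ± 13.2 CPM in WT and 114 ± 25.2 CPM in KO (SD, n = 3 each), a log2 fold change of 0.24 (SE 0.159, edgeR FDR = 0.914, and 0.242 with the replicate block). *Coa3* and *Uqcc2* had the same order of libraries within each genotype, lowest in library 1 and highest in library 2, and both had their lowest log2 fold change without KO library 2 (0.054 for *Coa3* and 0.19 for *Uqcc2*). *Coa3* was also among the genes that the study called on these libraries, by a test over cells and not over library sums.

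The copper chaperones did not move together. *Sco1* was at 5.44, 5.04, and 4.91 CPM in WT and 4.73, 4.32, and 4.84 CPM in KO, and it was the only member whose groups did not overlap, with every KO library below every WT library. Its log2 fold change was −0.14 (SE 0.107, edgeR FDR = 0.914), and 1 of 9 members without overlap stands beside 10.6% of the 9465 genes. *Sco1* passed the filter through WT alone, with a UMI in 13.5% to 18.1% of WT β cells by library. In the shallower KO cells the share was 8.15% to 14.2%. With all KO β cells kept and hormone genes left out of the total, the groups overlapped, and KO library 3 was the highest (9.70 CPM). *Sco2* was at 6.42, 7.01, and 6.71 CPM in WT and 5.69, 7.15, and 7.97 CPM in KO, with the KO values on both sides of WT (0.045, SE 0.133). *Surf1* was at 23.8, 20.2, and 21.6 CPM in WT and 20.7, 23.4, and 19.3 CPM in KO (−0.054, SE 0.0971), and its groups overlapped too.

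**Figure D2:**
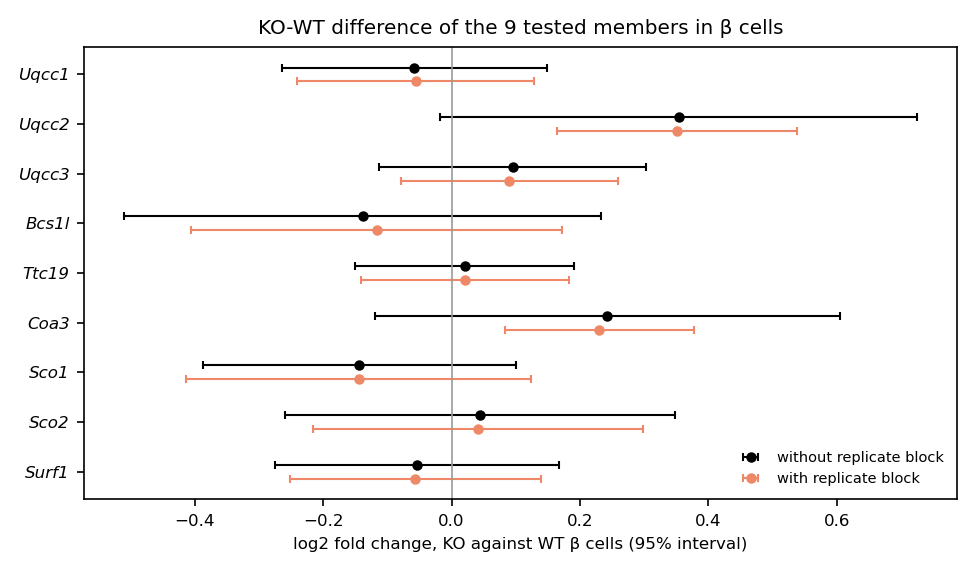
Log2 fold change of KO against WT β cells for the 9 tested members (x axis), with 95% intervals from edgeR, without (black) and with (orange) the replicate block. Without the block every interval spans 0. With it, the intervals of *Uqcc2* and *Coa3* lie above 0 while their FDRs stay at 0.169 and 0.242.

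Some marker lists of other cells overlapped between the genotypes in the β cell sums and 1 did not. Summed markers were at 12.6 to 15.3 CPM in WT and 9.20 to 13.0 CPM in KO for 8 endothelial genes, at 28.4 to 33.0 and 22.2 to 31.0 CPM for 6 macrophage genes, and at 2.79 to 304 and 17.6 to 61.2 CPM for 6 acinar genes. The 4 δ cell genes were at 76.0 to 104 CPM in WT and 25.9 to 70.5 CPM in KO, without overlap, but at 89.0 to 129 CPM in KO, overlapping WT, when the KO cells with a *Ywhaz* UMI were kept. *Ins1* was at 85814 to 111690 CPM in WT and 63132 to 68069 CPM in KO, without overlap. Its locus carries the Cre in both genotypes, and the cause of this difference was not tested. Leaving the hormone genes out of the scaling gave log2 fold changes of 0.32 for *Uqcc2* and 0.21 for *Coa3*. With β cells thinned to 5000 UMIs each they were 0.39 and 0.24, and with all KO β cells kept 0.33 and 0.23. The part of the δ cell genes in these values was not tested.

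The other genes of complexes III and IV gave a background for the members. None of 47 tested genes in 4 lists was called, with or without the replicate block. Log2 fold changes were above 0 for 9 of 9 complex III subunits (median 0.11), 11 of 12 nuclear-encoded complex IV subunits (median 0.17), 3 of 4 mitochondrially encoded mRNAs of both complexes (median 0.077), and 20 of 22 other assembly factors (median 0.12). For the 9 members the count was 5 (median 0.020), and for all genes it was 51.1% (median 0.0030). Levels of these genes in a library are not independent of each other, so the counts are a description. The 3 with the lowest unadjusted p among complex III subunits were *Uqcrc2* (log2 fold change 0.16, SE 0.106), *Uqcrb* (0.22, SE 0.173), and *Cyc1*, the gene of cytochrome c1 (0.11, SE 0.0920). Among nuclear-encoded complex IV subunits they were *Cox4i1* (0.18, SE 0.106), *Cox7a2* (0.21, SE 0.134), and *Cox7b* (0.23, SE 0.15). Of the mitochondrially encoded mRNAs they were *mt-Co1*, which encodes COX1 (−0.15, SE 0.128), *mt-Co2*, the target of the copper chaperones (0.11, SE 0.117), and *mt-Cytb*, which encodes cytochrome b (0.083, SE 0.129). KO library 2 was the highest of the 6 libraries in each of these named genes except *mt-Co1*, where it was the lowest. *Cox4i1* was at 278, 276, and 267 CPM in WT and 282, 360, and 285 CPM in KO. *Cox7b* was at 111, 115, and 107 CPM in WT and 110, 166, and 114 CPM in KO. The part of KO library 2 in the counts and medians of the lists was not tested.

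Among the other assembly factors, 3 of 22 genes had an unadjusted p under 0.05, against 4.22% of all genes, and an FDR of 0.914 (edgeR). *Cmc1*, whose protein is known to work next to that of *Coa3* on COX1, was at 20.2, 19.5, and 19.8 CPM in WT and 22.0, 27.3, and 22.4 CPM in KO (log2 fold change 0.27, SE 0.0932). *Smim20*, another factor of COX1, was at 32.7, 33.7, and 32.2 CPM in WT and 34.6, 43.2, and 36.8 CPM in KO (0.21, SE 0.0890). For both, every KO library was above every WT library, the only 2 of the 22 genes of this list. Counting both directions, 10.6% of all genes had groups that did not overlap. *Smim4*, a factor of cytochrome b, was at 32.2, 42.6, and 39.3 CPM in WT and 40.8, 54.3, and 45.6 CPM in KO (0.30, SE 0.131), with overlapping groups. In each of the 3 genes KO library 2 was the highest of the 6.

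The next comparison asked whether the KO-WT values of the members differ between β cells, where *Ywhaz* is deleted, and cells where it is not. No member was called between genotypes in any of the 6 other classes, where 4 (B cells) to 9 (*Ppy*-dominant) members passed the filter. The share of all genes called was 0% in α, δ, endothelial cells, and macrophages, 0.0106% in *Ppy*-dominant cells, and 0.0231% in B cells. *Uqcc2* had a log2 fold change above 0 in all 6: 0.18 in α (SE 0.132), 0.071 in δ (SE 0.116), 0.23 in *Ppy*-dominant (SE 0.129), 0.43 in endothelial cells (SE 0.182), 0.26 in macrophages (SE 0.169), and 0.70 in B cells (SE 0.302). In endothelial and B cells the unadjusted edgeR p was under 0.05, as for 3.35% and 2.80% of all genes there. The edgeR FDRs were 0.979 and 0.9996. *Coa3* was likewise above 0 in all 6, from 0.038 in δ cells (SE 0.122) to 0.62 in B cells (SE 0.277), where its unadjusted p was also under 0.05. No other member reached an unadjusted p under 0.05 in these 6 classes, and DESeq2 called none. In B cells the library with the fewest held 12 UMIs of *Uqcc2* and 4 of *Coa3*.

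The difference of the KO-WT values between β cells and each other class was tested in 1 model per class, with each library as a block. It called no member, beside 0.0105% of all genes against α, 0.0309% against δ, 0.0309% against *Ppy*-dominant, 0.0199% against endothelial cells, 0.0102% against macrophages, and 0.0105% against B cells. For *Uqcc2* the KO-WT value in β cells minus that in the other class ran from −0.28 against B cells (SE 0.376) to 0.26 against δ cells (SE 0.125), and its FDRs were all at or above 0.976. These intervals are wide: against δ cells the 95% interval ran from −0.0033 to 0.52, and against endothelial cells from −0.37 to 0.21.

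The libraries with low and high *Uqcc2* were in part shared between the classes. On a scale of CPM with the 5 hormone genes left out of the total, endothelial cells were at 129, 197, and 152 CPM in WT libraries 1 to 3 and 167, 258, and 209 CPM in KO libraries 1 to 3, and α cells at 352, 531, and 471 CPM in WT and 430, 556, and 556 CPM in KO. WT library 1 was the lowest of the 6 libraries in 7 of 7 classes, β cells included, and KO library 2 was the highest in 5 of 7, the exceptions being δ cells (WT library 2) and *Ppy*-dominant cells (KO library 3). For *Coa3*, WT library 1 was the lowest in 3 of 7 classes and KO library 2 the highest in 6 of 7. In β cells, WT library 1 was also the deepest, with a median of 42603 UMIs per cell. KO library 2 was the shallowest, with 20773.5. The medians were 28006 and 32781 in WT libraries 2 and 3, and 30425.5 and 31769 in KO libraries 1 and 3. The part of depth in this order of libraries was not tested. KO was above WT in all 3 same-numbered pairs in 4 of the 6 other classes for *Uqcc2* and in 2 of 6 for *Coa3*. The count was also 2 for *Lyrm7* and *Surf1*, 1 for *Uqcc1*, *Ttc19*, *Sco1*, and *Sco2*, and 0 for *Uqcc3* and *Bcs1l*.

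**Figure D3:**
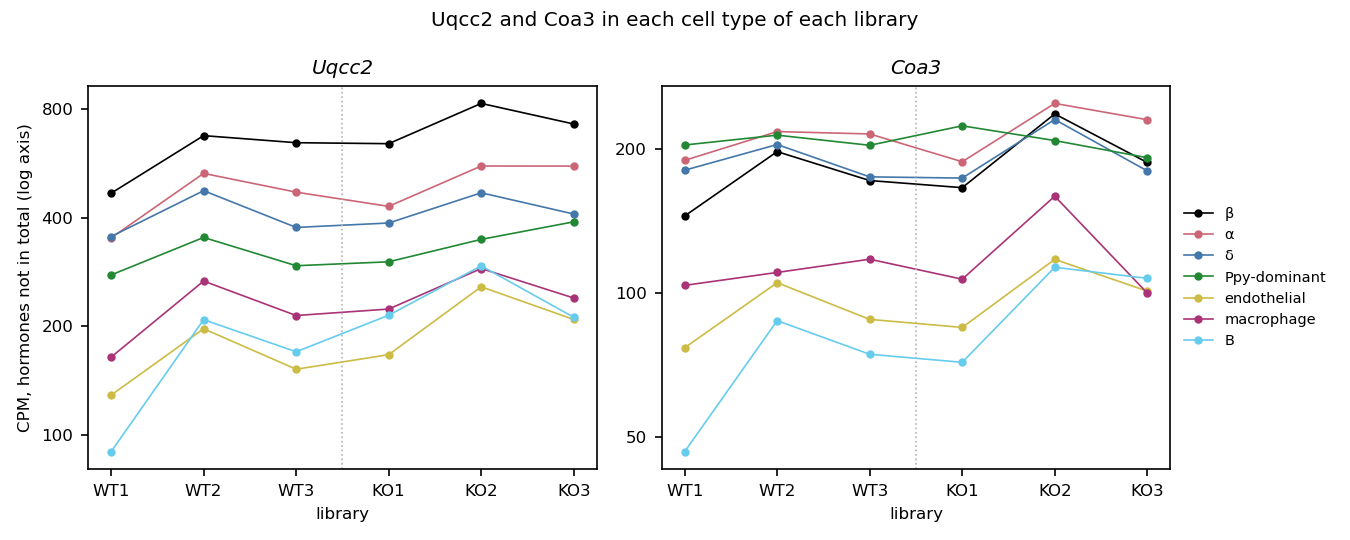
*Uqcc2* (left) and *Coa3* (right) in each cell type of each library, in CPM with hormone genes left out of the total (log axis). Points are libraries, lines only join the points of 1 cell type, and the dotted line parts WT from KO. WT library 1 is lowest for *Uqcc2* in all 7 classes.

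Insulin mRNA counted in the other classes moved with the same libraries. *Ins1* and *Ins2* together in endothelial cells were at 2.34% of the β cell level of the same library in WT library 1, at 11.0% and 7.03% in WT libraries 2 and 3, and at 8.03%, 17.2%, and 8.09% in KO libraries 1 to 3. The range was 1.56% to 8.57% in α cells and 3.75% to 26.6% in B cells, in each class lowest in WT library 1 and highest in KO library 2. The part of RNA from β cells in the KO-WT values of the other classes was not tested.

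The last comparison asked in which islet cells the members are high or low, over all 6 libraries and with all KO β cells kept. *Uqcc2* was higher in β cells than in each of the 6 other classes, and *Sco2* was lower in β cells than in endothelial cells and macrophages. The members did not share 1 pattern. Levels are CPM with the hormone genes left out of the total, since insulin mRNA alone takes up much of a β cell's UMIs. A UMI marks 1 molecule whatever its length.

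Of the complex III factors, *Uqcc2* had a lowest, median, and highest library of 468, 661, and 830 CPM in β cells, 352, 501, and 556 CPM in α cells, and 355, 398, and 475 CPM in δ cells. It was at 278, 325, and 390 CPM in *Ppy*-dominant cells, 164, 232, and 289 CPM in macrophages, 89.9, 210, and 294 CPM in B cells, and 129, 182, and 258 CPM in endothelial cells. The β cell mean was 665 ± 119 CPM and the endothelial mean 185 ± 45.9 CPM (SD, n = 6 each), a 3.59-fold span. Neighbours in this order overlapped in their library ranges, but within every library the β cells were above all 6 other classes. Against the other classes, *Uqcc2* was higher in β cells by 0.41 on the log2 scale in α (SE 0.0618, edgeR FDR = 1.98e-05), 0.64 in δ (SE 0.0620), 0.85 in *Ppy*-dominant (SE 0.0700), 1.71 in endothelial cells (SE 0.0657), 0.98 in macrophages (SE 0.0704), and 1.19 in B cells (SE 0.188). Each of these 6 calls held in all 14 alternatives run for it, and scaling without the hormone genes gave 1.51 against macrophages and 1.81 against B cells.

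*Uqcc3* did not follow *Uqcc2*, although their proteins act in the same module. Its mean was highest in endothelial cells (87.0 ± 10.6 CPM, SD, n = 6) and B cells (78.2 ± 11.2 CPM), at 60.2 ± 3.84 CPM in β cells, and lowest in macrophages (49.2 ± 9.16 CPM). In β cells it was lower than in endothelial cells by a log2 fold change of −0.68 (SE 0.0635), than in δ cells by −0.35 (SE 0.0791), and than in B cells by −1.03 (SE 0.172), calls that held in all 14 alternatives. Against B cells the value was −0.35 (edgeR FDR = 0.0429) with scaling without the hormone genes. It was also called lower than in *Ppy*-dominant cells (−0.22, held in 5 of 14), and than in macrophages (−0.22, FDR = 0.0491), where scaling without the hormone genes turned the sign to 0.30. *Uqcc1* was within 26.0 to 26.9 CPM on average in β, δ, and *Ppy*-dominant cells and at most 20.7 CPM in the other 4 classes. It was called higher in β than in endothelial cells (0.34, SE 0.0926, held in 13 of 14) and than in α cells (0.27, SE 0.107, held in 8 of 14).

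*Bcs1l* was at 9.71, 10.8, and 15.3 CPM in β cells (lowest, median, and highest library) and at 3.39, 6.56, and 7.97 CPM in endothelial cells, without overlap. With TMM scaling it was called against endothelial cells alone (log2 fold change 0.69, SE 0.159, edgeR FDR = 0.00334), and the call held in all 14 alternatives. With scaling without the hormone genes it was also called higher than in macrophages. *Lyrm7* was tested in none of these contrasts. Its mean level was 9.15 ± 4.31 CPM in α cells, 4.45 ± 0.468 CPM in β cells, and 1.17 ± 0.580 CPM in endothelial cells (SD, n = 6), and at this depth it was not detected in 2 macrophage, 2 B cell, and 1 *Ppy*-dominant libraries. *Ttc19* was at 48.6 ± 3.48 CPM in β cells, lower than in α cells (56.6 ± 5.66 CPM, log2 fold change −0.27, SE 0.0678, held in 12 of 14). It was higher than in macrophages (23.7 ± 6.83 CPM, log2 fold change 0.49, held in 11 of 14) and than in endothelial cells (0.26, held in 9 of 14), where scaling without the hormone genes gave 1.01 and 0.41.

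**Figure D4:**
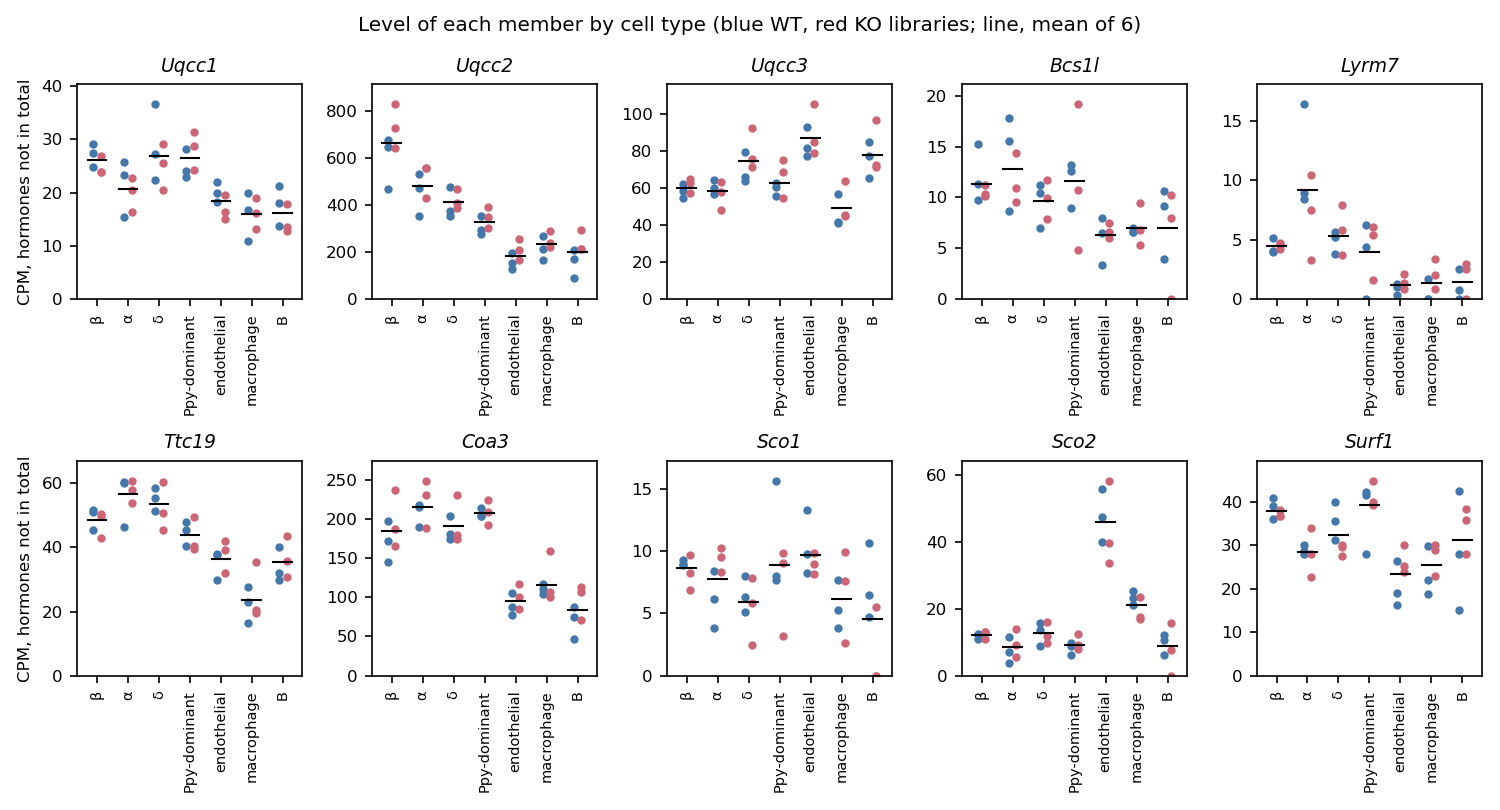
Level of each member by cell type, in CPM with hormone genes left out of the total (y axes start at 0 and differ by gene). Points are libraries (blue WT, red KO) and lines the mean of 6. *Uqcc2* is highest in β cells, *Sco2* in endothelial cells, and the mean of *Coa3* is higher in the 4 endocrine classes than in the other 3, where macrophages overlap with β cells.

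Of the complex IV factors, *Coa3* had a higher mean in each endocrine class than in the other classes, and it was not highest in β cells. It had a lowest, median, and highest library of 145, 180, and 237 CPM in β cells, 188, 216, and 249 CPM in α cells, and 192, 206, and 224 CPM in *Ppy*-dominant cells. In endothelial cells the values were 76.8, 94.4, and 118 CPM, below every β cell library. Against β cells it was higher in α (log2 fold change, β minus α, −0.28, SE 0.0615, held in 14 of 14) and in *Ppy*-dominant cells (−0.33, SE 0.0775, held in 13 of 14). β cells were above endothelial cells (0.79, SE 0.0511, held in 14 of 14) and above B cells (0.51, SE 0.180, held in 11 of 14). Against macrophages *Coa3* was not called with TMM scaling (0.13, SE 0.0856, edgeR FDR = 0.188). On the scale of CPM without hormone genes its mean was 184 CPM in β cells and 116 CPM in macrophages. With scaling without the hormone genes it was among the members called higher in β cells than in macrophages. That scaling moved the median of all genes by 0.53 in this contrast. Scaling without the hormone genes gave 1.17 against B cells and −0.17 against *Ppy*-dominant cells.

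*Sco2* stood apart in the opposite direction. It was at 33.7, 43.7, and 58.4 CPM in endothelial cells (lowest, median, and highest library), at 16.9, 22.1, and 25.4 CPM in macrophages, and at 11.0, 12.3, and 13.1 CPM in β cells. These 3 ranges did not overlap. The log2 fold change of β cells was −2.05 against endothelial cells (SE 0.0937) and −1.33 against macrophages (SE 0.114). Both calls held in all 14 alternatives, with −0.81 against macrophages when the scaling left out the hormone genes. None of the alternatives addresses the exonic bases shared with *Tymp*, and the part of *Tymp* reads in the *Sco2* values was not tested. *Sco2* was also called lower than in B cells (−0.64, held in 8 of 14), where scaling without the hormone genes turned the sign to 0.17, and higher than in α cells (0.44, held in 5 of 14). *Sco1*, the gene of the other copper chaperone, was not tested between classes. Its mean was 9.72 ± 1.89 CPM in endothelial cells and 8.68 ± 0.990 CPM in β cells, ranges that overlapped. *Surf1* was at 38.0 ± 1.80 CPM in β cells, above endothelial cells (23.5 ± 5.03 CPM, log2 fold change 0.55, SE 0.109) and α cells (28.6 ± 3.62 CPM, 0.37, SE 0.0899), and both calls held in all 14 alternatives.

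Over the 6 contrasts, 27 calls were made among the 8 members tested in each, and 16 of them held in every alternative. These shares need the background, since most genes differ between cell types. Against α cells 4 members were called higher and 2 lower in β cells, beside 31.2% and 31% of all genes. The counts were 1 and 1 against δ (30% and 29.2%), 1 and 2 against *Ppy*-dominant (27.8% and 27.5%), 6 and 2 against endothelial cells (43.6% and 41.6%), 2 and 2 against macrophages (38% and 37.3%), and 2 and 2 against B cells (36.1% and 29.3%). Whether the members differ as a group from other genes was not tested. Scaling without hormone genes moved the median of all genes by 0.046 against α, 0.035 against δ, 0.16 against *Ppy*-dominant, 0.15 against endothelial cells, 0.53 against macrophages, and 0.70 against B cells. Relative to that median, the values of *Uqcc3* against macrophages (−0.26) and *Sco2* against B cells (−0.61) kept their sign.

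**Figure D5:**
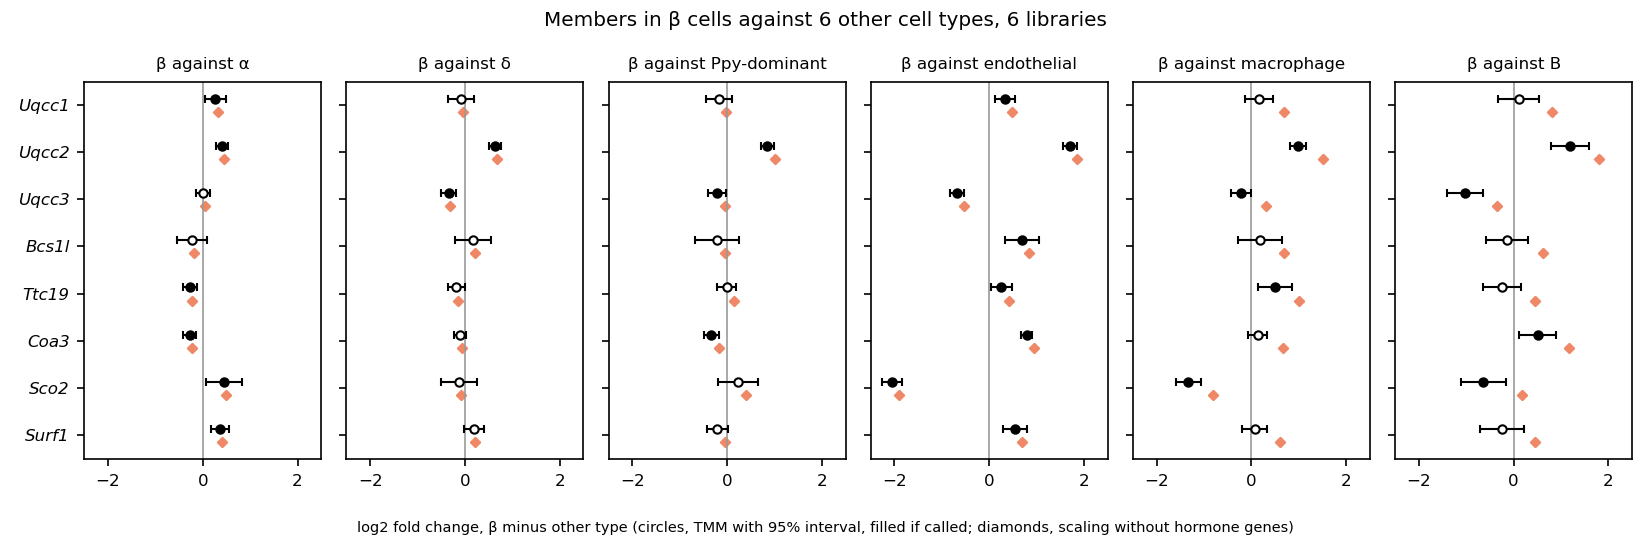
Log2 fold change of β cells against each of 6 other classes for the 8 tested members (x axis, β minus other). Circles with 95% intervals are TMM-scaled values, filled where called, and diamonds are values scaled without hormone genes. *Uqcc2* lies to the right of 0 in all 6 panels under both scalings, and *Sco2* far to the left against endothelial cells and macrophages.

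Across the 7 classes, by their mean log2(CPM + 1), the genes whose pattern was most like *Uqcc2* were *Tmem56*, *Sec22c*, and *Slc25a1*, the gene of the mitochondrial citrate carrier (Pearson r between 0.991 and 0.992). Those most like *Coa3* were *Prrt1*, *Grik5*, and *Trim46* (r = 0.996 each), and those most like *Sco2* were *Chmp6*, *Sfxn3*, and *Ralb* (r between 0.987 and 0.992). Among the members themselves, *Bcs1l* and *Coa3* were most alike (r = 0.978), *Uqcc2* and *Bcs1l* had an r of 0.906, and *Uqcc2* and *Uqcc3* one of −0.39. With 7 points that share their libraries, chosen among the 9465 genes tested in β cells, such values describe these cells and carry no test.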

How the data were processed

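Single-cell RNA was measured in 6 islet libraries, 1 per mouse. The deposited values are UMI counts per gene and barcode, which the authors made with Cell Ranger 6.0.2 on mm10, per the submitters' processing notes, which also name Seurat. From these counts, barcodes with at least 500 genes and at most 10% mitochondrial UMIs were kept, those with marker lists of other cell types were set apart, and endocrine cells needed 3500 UMIs and 1500 genes. Classes with fewer than 10 cells in a library were not compared. Barcodes with the highest Scrublet doublet scores, in a share set by the number of kept barcodes per library, were left out only as an alternative. Genotypes come from the sample labels. UMIs were summed per library and class and tested with edgeR 4.0.16 (R 4.3.3; TMM, quasi-likelihood F test, Benjamini-Hochberg), without a block for genotype and with each library as a block between classes. All tests were two-sided. Totals per library (74083947 to 98294915 UMIs) and 3 mice per genotype set the precision, and genes with few UMIs carry counting error as well.

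Same-numbered libraries deviated together from their group means (r = 0.516, 0.569, and 0.343 against −0.571 to −0.0059 for the others), so the numbers were taken to pair the samples. Deviations cancel within a group, so positive values for the same numbers push the others down. The sample titles give only replicate numbers, and the pairing was inferred from these same data. DESeq2 1.42.0, no filter on low counts, scaling without hormone genes, stricter classes, at least 3000 genes, a mitochondrial share up to 20%, thinned cells, all KO β cells, Leiden clusters (scanpy 1.11.5), the replicate block, WT libraries alone, and leaving out each library were tried. The members and lists were chosen with earlier results of these data known. Genes named outside the members were the 3 with the lowest p of each list and the 3 most alike across classes.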

Additional observations from a re-analysis of the deposited data

How the results depend on the processing

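No member was called between genotypes in β cells, in the 6 other classes, or in the difference between them under any alternative run. Of all genes in β cells, 7 were called by DESeq2, 2 with scaling without hormone genes, and 18 with the replicate block, against 1, and the block changed no other call. *Uqcc2* and *Coa3* stayed above 0 in 17 of 17 alternatives, from 0.19 to 0.47 and from 0.054 to 0.36 on the log2 scale. Uncalled KO-WT values that changed sign were *Ttc19* (−0.0025 with scaling without hormone genes, −0.033 with all KO β cells kept) and *Uqcc3* (−0.0037 in thinned cells). Leaving out 1 library gave −0.014 to 0.066 for *Ttc19*, −0.13 to 0.012 for *Surf1*, −0.26 to 0.052 for *Bcs1l*, and −0.072 to 0.17 for *Sco2*.

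Between classes, counts of members called higher in β than in α cells fell from 4 to 2 with DESeq2 and with WT libraries only, and ran from 2 to 4 without 1 library. Against δ, the count higher was 3 with no filter and 2 with at least 3000 genes (1 to 2 without 1 library), and the count lower was 2 with a mitochondrial share up to 20%. Against *Ppy*-dominant, the count lower was 1 with DESeq2, no filter, or WT libraries only, 0 with scaling without hormone genes, and 1 to 2 without 1 library. Against macrophages, the count higher was 4 with no filter and 7 with scaling without hormone genes (1 to 2 without 1 library), and the count lower was 1 with DESeq2, no filter, that scaling, or WT libraries only (1 to 2). Against B cells, the count higher was 5 with that scaling and 1 with a mitochondrial share up to 20% (1 to 2), and the count lower was 1 with DESeq2, no filter, that scaling, or WT libraries only (1 to 2). With that scaling *Uqcc3* reversed to 0.30 against macrophages and *Sco2* to 0.17 against B cells. The scaling moves the median of all genes, and the cause of the other changes was not tested. With 3 mice per genotype, only differences well above the spread between mice could be called.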

Other observations

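Mesenchymal, T, and ductal cells numbered fewer than 10 in at least 1 library and entered no comparison. Pooled over the libraries, *Sco2* was at 37.0 CPM in ductal cells (exact Poisson 95% interval 32.1 to 42.4, counting error only), 29.2 CPM in mesenchymal cells (23.7 to 35.6), and 15.1 CPM in T cells (12.7 to 17.9). *Uqcc2* was at 340 CPM in mesenchymal cells (320 to 360), 269 CPM in T cells (258 to 279), and 187 CPM in ductal cells (175 to 198).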
